A study of Mus musculus with 30 samples.

Results

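Il10, Entpd1 and Fgl2 encode 3 molecules through which regulatory T cells (Treg) can restrain other cells, and their transcript levels were followed over all 30 arrays of this series. The members were every probe set whose only gene symbol in the array's annotation was 1 of these 3 names. There were 5 such probe sets among the 12488 of the array, 2 for Il10 (100319_at and the control probe set AFFX-MurIL10_at), 1 for Entpd1 (160774_at) and 2 for Fgl2 (97949_at and 162289_at). IL-10 is a secreted cytokine that signals through a receptor of an IL-10-specific and a shared chain and acts through STAT3 to dampen antigen-presenting cells and inflammation. ENTPD1, also called CD39, is a cell-surface enzyme that removes phosphates from extracellular ATP and ADP. Its product, AMP, is turned into adenosine by CD73 (Nt5e), and adenosine acts on T cells through its own receptors. FGL2 is a fibrinogen-like protein made by T cells in secreted form and by macrophages and endothelial cells in a membrane form, and the secreted form binds the inhibitory Fc receptor Fcgr2b.

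All samples were CD4+ T cells, sorted by flow cytometry from NOD mice with the BDC2.5 transgenic T cell receptor, which recognises a pancreatic islet antigen. RNA was hybridised, 1 sample per array, to a one-colour Affymetrix mouse array (MG-U74Av2). In pancreas set 1, from mice given rat IgG with no age in the labels, 3 arrays measured Treg cells sorted as CD4+CD25+CD69- and 5 measured effector T cells (Teff, CD4+, CD25 low or negative, CD69 positive or negative). Pancreas set 2 came from infiltrated pancreas and held 3 arrays of CD4+CD25+ Treg cells and 3 of CD4+CD25- Teff cells from mice of 26 days given antibody to the costimulatory receptor ICOS. It also held 2 arrays of IgG-treated CD4+CD25+CD69- Treg cells, at 4 weeks for replicate 1 and 26 days for replicate 2. The lymph node set came from mice of 4 weeks with no treatment named and held 5 CD4+CD25+ and 3 CD4+CD25- arrays of mesenteric nodes, and peripheral nodes gave 3 arrays per sort. CD25 is the surface marker used to enrich Treg cells, so a CD25+ sort can also hold activated cells. The array has no probe set for Foxp3, the factor that defines Treg cells. The labels name no separate animals for the replicates, and the p-values reflect the spread of these samples only, which may be technical.

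Some arrays stood apart or went against their labels. IgG Treg replicate 3 of set 1 and IgG Treg replicate 2 of set 2 are 1 array, number 2298, and were counted once in fits that joined the sets. Il2ra, which encodes CD25, had a log2 intensity of 3.88 in the library labelled anti-ICOS Treg replicate 3, against 5.0 and 7.03 in replicates 1 and 2 and 3.68 to 3.82 in the anti-ICOS Teff arrays. The main differences between sorts and treatments that rest on this library are given with and without it. Group levels and correlations include it. IgG Treg replicate 1 of set 2 had Lyz2, a lysozyme of macrophages, at 9.12 against 3.37 in replicate 2. Its summed intensity over 18 of 20 listed macrophage and dendritic cell markers was 1425, against 459 to 839 over the other 29 records. Its erythroid marker sum was 10271, against at most 3124 on any other record. Its T cell marker sum, 3481, was the lowest of the pancreatic records. The T cell genes Cd3e and Cd4 had group means of 8.01 to 8.83 and 6.23 to 7.16 over the 9 groups. The titles and other labels disagreed for the peripheral arrays, whose tissue entry names mesenteric nodes, and for mesenteric CD25+ replicate 2, whose source name is CD25-. The titles were followed.

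Values are log2 of the deposited intensity throughout, and differences are given on that log2 scale as the first group minus the second. The background was judged on each array by 41 probe sets of genes that belong to other tissues, and a probe set under their 90th percentile on an array, which lay at 5.74 to 6.71, is called near background there. Il10 (100319_at) lay above this limit on all 3 IgG Treg arrays of set 1, on 1 of 3 anti-ICOS Treg arrays and on 1 of 2 IgG Treg arrays of set 2. It lay below the limit on every other array. Entpd1, both Fgl2 probe sets and AFFX-MurIL10_at lay near background on all 30 arrays. Fgl2 came nearest to its limit in IgG Treg replicate 1 of set 1, at 6.24 against 6.33. Among the anti-ICOS arrays, Il2ra lay above the limit in Treg replicate 2 only. The calls of other genes below were made without regard to this limit. A level near background includes nonspecific signal, so the differences below for Entpd1 and Fgl2 are between low values, no fold is given for them, and a fold of Il10 against such a group is a lower bound. In a sorted population, fewer cells that make a transcript and less transcript per cell cannot be told apart.

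In the pancreas of IgG-treated mice, transcripts of all 3 genes were higher in Treg than in Teff cells. Il10 was 6.77 ± 0.54 (SD, n = 3) in Treg and 4.48 ± 0.065 (SD, n = 5) in Teff cells. All 5 Teff arrays lay below the background limit, and with each of them set to its limit Il10 was at least 1.43-fold higher in Treg cells. The measured log2 values of Entpd1 and Fgl2 differed by 1.45 and 1.90 by their main probe sets, all of them near background. All 3 passed the threshold of limma with an adjusted p under 0.05 over 12422 probe sets, where 3.93% of all probe sets were called higher in Treg cells.

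Il10 read 7.30, 6.78 and 6.23 in the 3 Treg arrays and 4.49, 4.38, 4.44, 4.55 and 4.52 in the 5 Teff arrays. The Teff arrays lay within a narrow band, the Treg arrays were spread more widely, and the groups did not overlap. The difference was 2.30 (SE 0.19, 95% interval 1.87 to 2.72, adjusted p = 0.000117) between the measured values. Treg and Teff arrays fall in 3 runs of array numbers, and within these runs the difference was 2.87, 2.34 and 1.70.

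Entpd1 read 4.92, 4.75 and 5.10 in the Treg and 3.46, 3.59, 3.43, 3.39 and 3.51 in the Teff arrays. Both groups were tight and stood apart. The difference was 1.45 (SE 0.097, 95% interval 1.23 to 1.66, adjusted p = 3.07e-05) and it was 1.39, 1.32 and 1.65 within the runs.

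Fgl2 (97949_at) read 6.24, 4.19 and 4.22 in the Treg and 2.96, 3.30, 2.82, 3.01 and 2.82 in the Teff arrays. Replicate 1 lay far above the other Treg arrays, and all Treg arrays lay above all Teff arrays. The difference was 1.90 (SE 0.40, 95% interval 1.02 to 2.79, adjusted p = 0.0195), and without Treg replicate 1 it was 1.23 (adjusted p = 0.0011). Over all probe sets, 8.53% had every Treg array above every Teff array. The call was lost without Teff replicate 5 (1.86, adjusted p = 0.0521).

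**Figure D1:**
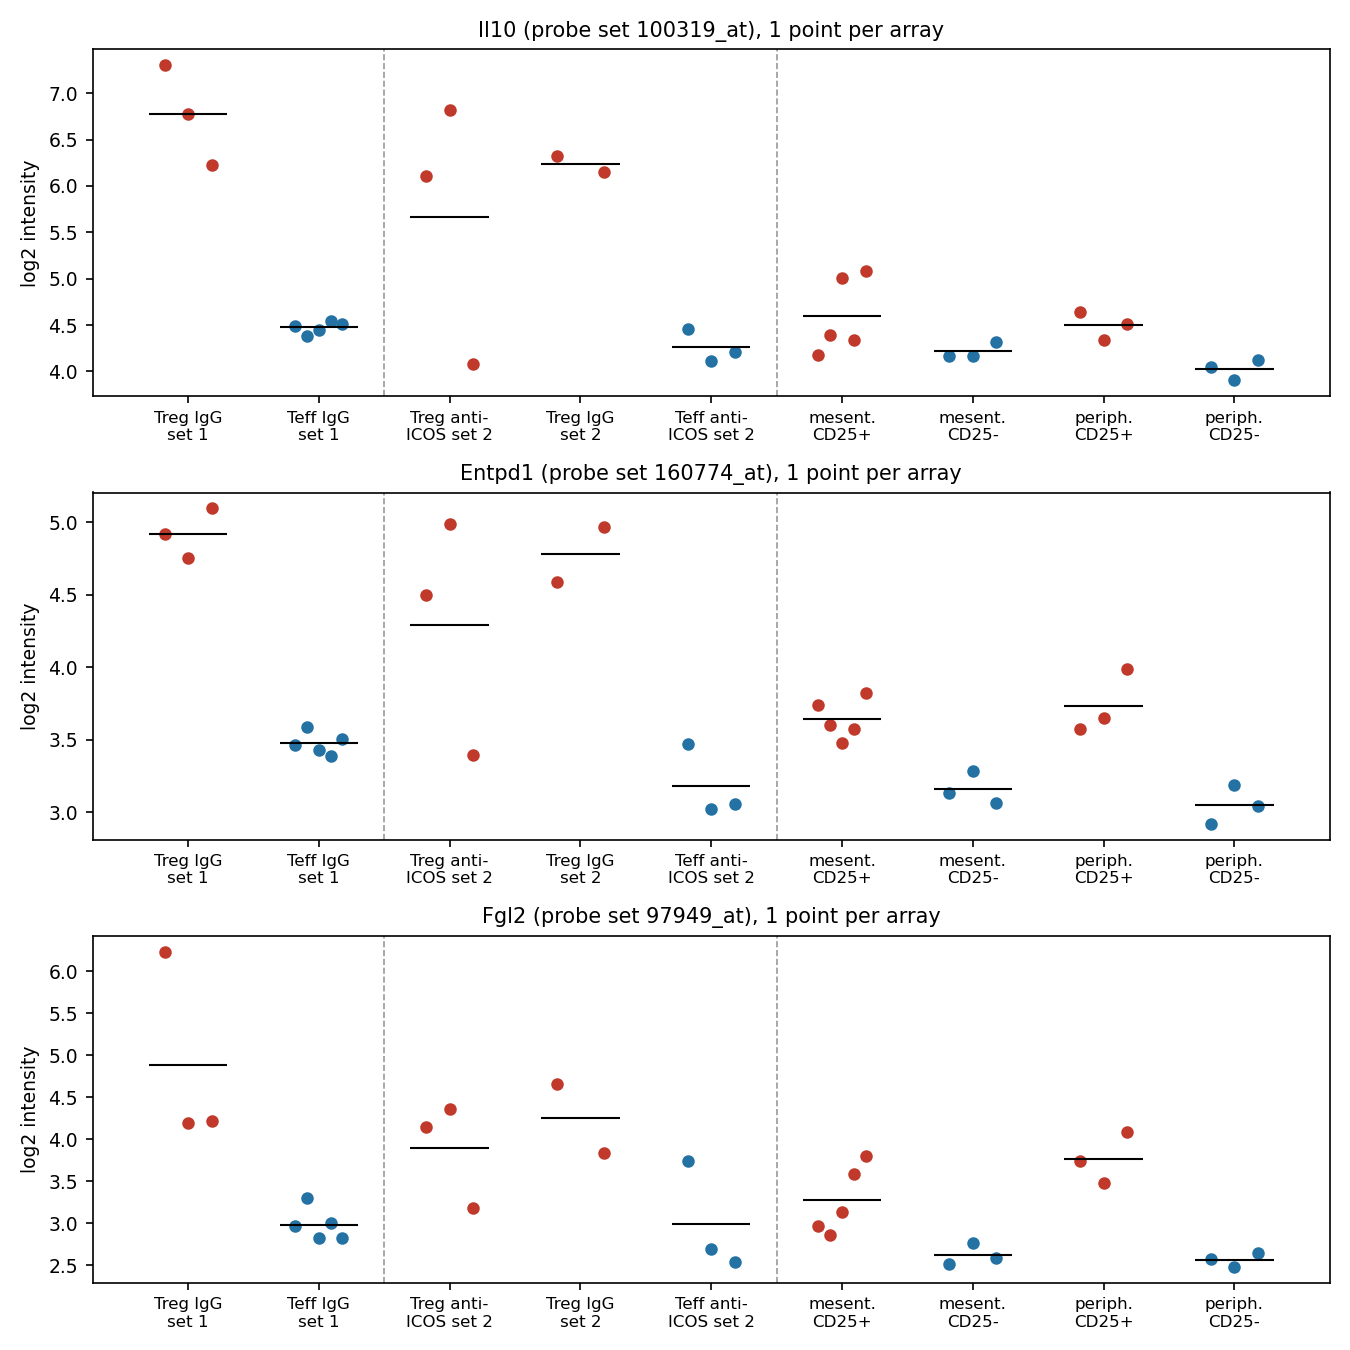
Log2 intensity (vertical axis) of Il10, Entpd1 and Fgl2 by their main probe sets, 1 point per array, in the 9 groups along the horizontal axis. Red marks Treg or CD25+ sorts, blue marks Teff or CD25- sorts, black lines are group means, and dashed lines separate pancreas set 1, pancreas set 2 and the lymph node set, whose levels were normalised apart. The 3 IgG Treg arrays of set 1 lie above all 5 Teff arrays for each gene, and 1 anti-ICOS Treg array lies with the Teff arrays.

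Macrophages also make Fgl2. The summed macrophage and dendritic cell markers were 786, 733 and 595 in Treg replicates 1 to 3 and 638 to 839 in the Teff arrays, and these ranges overlapped. Of the 18 measured markers 1, Lgmn, was called higher in Treg cells, where 3.93% of all probe sets were. Lyz2 lay at 3.41 to 4.12 in Treg and 3.15 to 3.85 in Teff arrays, near background. Sums of other marker lists did not overlap between the groups. The B cell sum over 13 measured of 14 listed genes was 782 to 959 in Treg and 564 to 646 in Teff arrays, and 3 of the 13, Cd79b (0.69), Blk (0.58) and Ighm (0.74), were called higher in Treg cells. The B cell genes Ms4a1 and Cd79a lay near background on all of these arrays, except Cd79a on 1 Teff array. The erythroid sum over 5 of 8 genes was 2394 to 2965 against 552 to 2330, with none of the 5 called. The CD8 and NK cell sum over 6 of 8 genes was 171 to 199 against 230 to 304, with Eomes called lower (-1.18), and the T cell sum over 11 of 13 genes was 5092 to 6143 against 3627 to 4880. The part of these cell types in the member values was not tested.

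The log2 ratio of the 3' to the 5' actin control probe sets, which rises as RNA is shortened, was 3.75 in Treg and 2.65 in Teff arrays (exact permutation test, two-sided, p = 0.0357, adjusted p = 0.2 over 8 comparisons). With this ratio as a covariate the difference was 2.04 for Il10 (adjusted p = 0.0211) and 1.67 for Entpd1 (adjusted p = 0.000684). For Fgl2 it was 2.09 with an adjusted p of 0.293, so the Fgl2 call did not hold in that fit.

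The 2 probe sets of Il10 and of Fgl2 did not show the same difference. AFFX-MurIL10_at differed by 0.033 between IgG Treg and Teff cells (95% interval -0.25 to 0.31, adjusted p = 0.923). It belongs to the control probe sets, and the rows of these had to be put back in order by name in the lymph node arrays. Fgl2 162289_at differed by 0.14 (95% interval -0.028 to 0.31, adjusted p = 0.346), while its 3 Treg arrays (3.01, 3.17 and 3.10) all lay above its 5 Teff arrays (2.90 to 2.97). Its group means lay at percentile 2.23 to 8.07 of their arrays. Which part of a transcript each probe set covers was not known here.

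**Figure D2:**
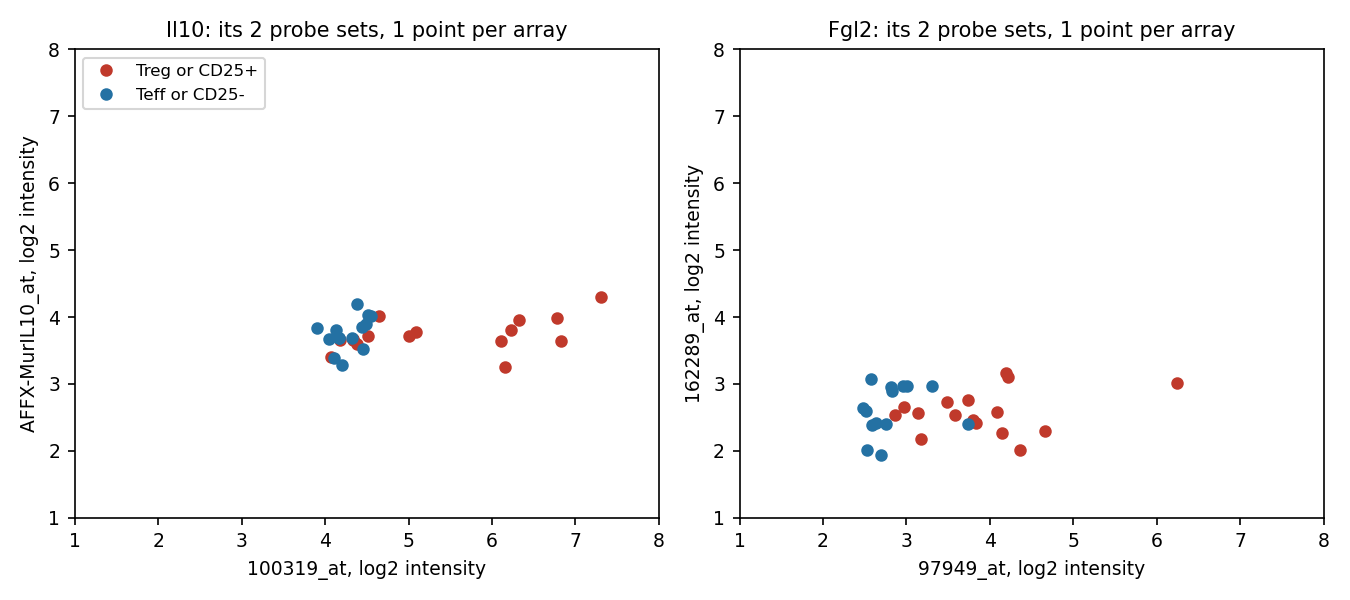
The main probe set of a gene (horizontal axis, log2 intensity) against its other probe set (vertical axis, log2 intensity), 1 point per array, for Il10 on the left and Fgl2 on the right. The main probe sets run to 7.30 and 6.24, and the other probe sets span a much shorter range, within which red (Treg or CD25+) and blue (Teff or CD25-) arrays are intermingled over the series as a whole.

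The stretch just before the transcription start is shown for the genes that RefSeq's promoter table (GRCm38.p6) holds, since factors that act on effector genes bind such stretches and the 3 genes were higher together in Treg cells. Of the 3 members, 2 matched, Entpd1 with 2 start sites and Fgl2 with 1. Each sequence is the 250 bases before the start on the plus strand, 5′ to 3′, at chr19:40612116-40612365, chr19:40659520-40659769 and chr5:21372423-21372672, with motif matches in capitals.
Entpd1 start 1: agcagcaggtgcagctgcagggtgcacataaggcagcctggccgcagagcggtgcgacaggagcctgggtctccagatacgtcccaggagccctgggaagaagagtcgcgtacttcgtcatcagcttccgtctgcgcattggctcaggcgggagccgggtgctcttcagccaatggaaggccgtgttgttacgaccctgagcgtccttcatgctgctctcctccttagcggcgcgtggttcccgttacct
Entpd1 start 2: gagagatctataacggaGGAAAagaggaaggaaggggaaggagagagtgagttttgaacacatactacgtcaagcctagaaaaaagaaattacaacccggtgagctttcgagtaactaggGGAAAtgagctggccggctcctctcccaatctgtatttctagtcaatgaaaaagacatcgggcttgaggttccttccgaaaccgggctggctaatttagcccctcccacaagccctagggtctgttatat
Fgl2: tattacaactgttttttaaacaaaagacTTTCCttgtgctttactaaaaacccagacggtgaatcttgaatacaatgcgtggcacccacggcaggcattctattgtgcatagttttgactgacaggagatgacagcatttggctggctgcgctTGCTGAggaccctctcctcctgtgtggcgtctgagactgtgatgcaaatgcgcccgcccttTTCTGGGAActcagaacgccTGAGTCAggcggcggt

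The motifs searched, on both strands, were AP-1 (TGAGTCA), the NFAT core (GGAAA), STAT (TTCNNNGAA), forkhead (TGTTTAC), Runx (TGTGGT), the Maf half-site (TGCTGA), the TATA box (letters TATAAA) and CRE (TGACGTCA). The Fgl2 stretch held an AP-1 match 16 to 10 bases and a STAT match 36 to 28 bases before the start, a Maf half-site at 97 to 92 and an NFAT core at 222 to 218 on the minus strand. None of these matches overlapped another. Entpd1 start 2 held 2 NFAT cores, and Entpd1 start 1 held no match. Among 32817 promoters of the same length, 4.46% held the AP-1 letters, 7.01% the STAT letters, 16.1% the Maf half-site and 55.6% the NFAT core. For the motifs without a match, the shares were 3.16% for forkhead, 14% for Runx, 12.4% for TATA and 1.55% for CRE.

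In mice given antibody to ICOS, the same sort comparison gave values for all 3 genes that did not pass the threshold. Il10 read 6.10, 6.82 and 4.08 in the Treg arrays and 4.46, 4.11 and 4.21 in the Teff arrays. Replicates 1 and 2 lay near the IgG Treg levels and replicate 3 lay below every Teff array. The difference was 1.41 (SE 0.59, 95% interval 0.051 to 2.76, adjusted p = 1). No probe set was called in this comparison by limma (0% higher), and 209 had an unadjusted p under 0.05.

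Entpd1 read 4.50, 4.99 and 3.39 in the anti-ICOS Treg and 3.47, 3.02 and 3.06 in the Teff arrays, a difference of 1.11 (95% interval 0.26 to 1.96, adjusted p = 1). Fgl2 read 4.14, 4.36 and 3.18 in the Treg and 3.74, 2.69 and 2.53 in the Teff arrays, a difference of 0.90 (95% interval -0.052 to 1.86, adjusted p = 1). For both genes Treg replicate 3 lay within the range of the Teff arrays, and Teff replicate 1 was the highest of its group. That Teff array also read highest of the 3 for Gzmb, granzyme B, at 7.25 against 5.38 and 4.75.

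The library labelled Treg replicate 3 had Teff-like levels of other Treg genes as well. Klrg1, an inhibitory receptor of differentiated T cells, read 5.50 there against 8.80 and 9.46 in the other anti-ICOS Treg arrays. Ctla4, the checkpoint receptor of Treg cells, read 6.02 against 7.49 and 8.96. Klrg1 was chosen after its values were seen. Without this library Il10 was 2.20 higher in Treg cells and was called (SE 0.24, adjusted p = 0.0376), as were 12 probe sets in all. The library was singled out by low values of genes that are high in Treg cells, as the members are. The larger differences without it are therefore no independent support. Entpd1 was then 1.56 (adjusted p = 0.108) and Fgl2 1.26 (adjusted p = 0.546).

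**Figure D3:**
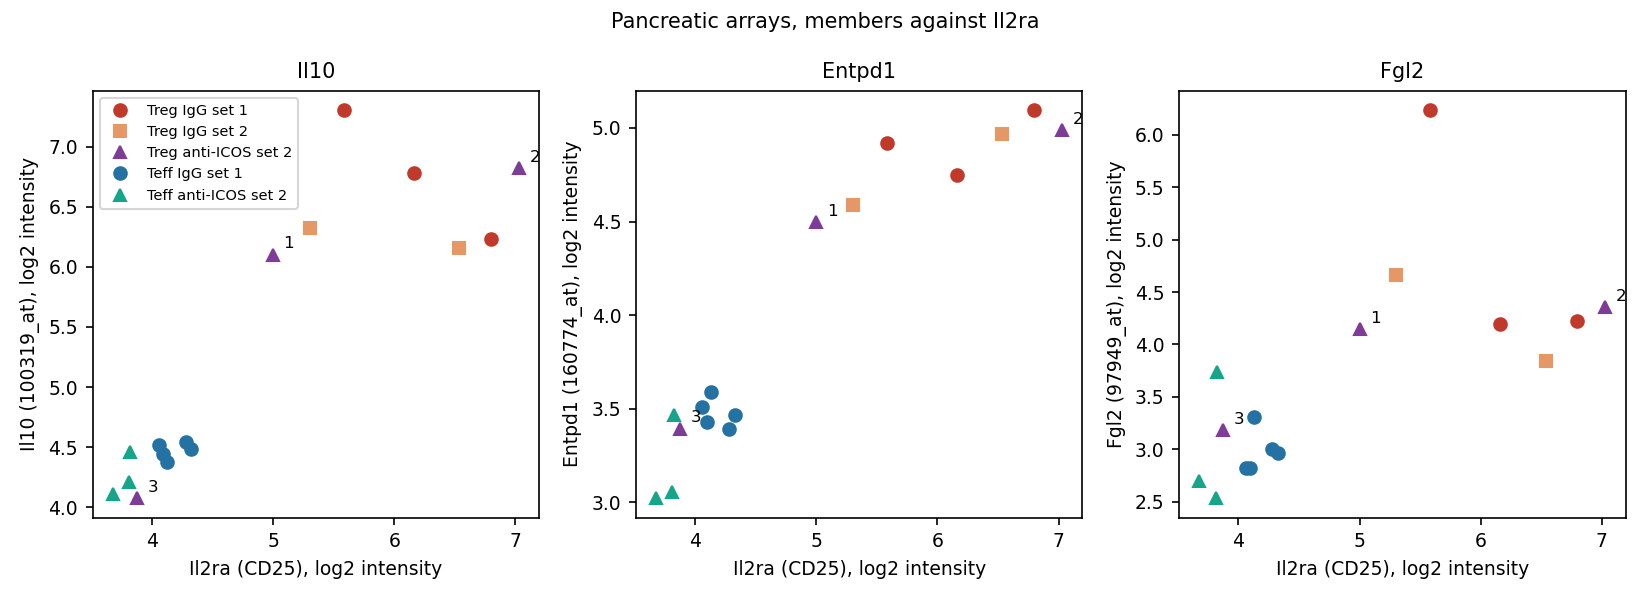
Log2 intensity of Il10, Entpd1 and Fgl2 (vertical axes) against that of Il2ra (horizontal axes) in the 16 records of pancreatic arrays, 1 point per record, with colour and shape giving the group and the numbers 1 to 3 marking the anti-ICOS Treg replicates. Anti-ICOS Treg replicate 3, at an Il2ra level of 3.88, lies at the level of the Teff arrays for all 3 genes, and replicates 1 and 2 lie with the IgG Treg arrays.

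The effect of anti-ICOS itself was compared within set 2 for Treg cells. The IgG Treg arrays of set 2 read 6.32 and 6.16 for Il10, 4.59 and 4.97 for Entpd1 and 4.66 and 3.84 for Fgl2. Il10 was lower by 0.57 in anti-ICOS Treg cells (log2 difference -0.57, 95% interval -2.09 to 0.94, adjusted p = 0.893). Entpd1 differed by -0.49 (95% interval -1.43 to 0.46, adjusted p = 0.893) and Fgl2 by -0.36 (95% interval -1.43 to 0.71, adjusted p = 0.897). None passed, and 0% of all probe sets did by limma, with 425 at an unadjusted p under 0.05. Without anti-ICOS replicate 3 the differences were 0.22, -0.037 and -0.00129. Without IgG replicate 1, the array with the high Lyz2, the Fgl2 difference was 0.054 and those of Il10 and Entpd1 were -0.49 and -0.67. The gates also differed, as the IgG Treg sort took CD69- cells.

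For Teff cells, treatment and set coincide, so a difference between treatments cannot be told apart from one between sets. After joint quantile normalisation the anti-ICOS minus IgG difference was 0.090 for Il10, 0.22 for Entpd1 and 0.61 for Fgl2 (each adjusted p = 0.999), and 0% of all probe sets were called by limma, with 515 at an unadjusted p under 0.05. The test of the interaction, the anti-ICOS minus the IgG value of the Treg minus Teff difference, gave -1.05 for Il10, -0.54 for Entpd1 and -1.27 for Fgl2 (each adjusted p = 1). None passed, 0% of all probe sets did by limma, and 327 had an unadjusted p under 0.05. The 95% intervals of these interactions were -2.30 to 0.20, -1.25 to 0.17 and -2.57 to 0.040. Without anti-ICOS Treg replicate 3 the interactions were -0.31, -0.14 and -0.95.

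In the lymph nodes, Entpd1 and Fgl2 were higher in CD25+ than in CD25- cells of both sites, and Il10 did not pass the threshold at either. The share of probe sets called higher in CD25+ cells was 4.66% in mesenteric and 1.80% in peripheral nodes by limma, and 7.53% and 5.89% were called lower.

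Entpd1 read 3.74, 3.60, 3.48, 3.57 and 3.82 in mesenteric CD25+ and 3.13, 3.29 and 3.06 in mesenteric CD25- arrays. The groups did not overlap, as for 12.1% of all probe sets in this direction. The difference was 0.48 (SE 0.11, adjusted p = 0.0125). In peripheral nodes it read 3.57, 3.65 and 3.99 in CD25+ and 2.92, 3.19 and 3.04 in CD25- arrays, a difference of 0.69 (SE 0.13, adjusted p = 0.00426). Within the 2 runs of node arrays the differences were 0.46 and 0.56 in mesenteric and 0.63 and 0.80 in peripheral nodes. The mesenteric call was lost without CD25- replicate 1 (adjusted p = 0.0581) or replicate 3 (adjusted p = 0.0538).

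Fgl2 read 2.97, 2.86, 3.14, 3.59 and 3.80 in mesenteric CD25+ and 2.52, 2.76 and 2.59 in CD25- arrays. The groups stood apart by a narrow margin, and CD25+ replicates 4 and 5 were the highest. The difference was 0.65 (SE 0.19, adjusted p = 0.0433), and it was 0.28 and 0.92 within the runs. This call was lost without any 1 of 8 of the 14 arrays, at adjusted p from 0.055 to 0.158. In peripheral nodes Fgl2 read 3.74, 3.48 and 4.08 in CD25+ and 2.58, 2.48 and 2.64 in CD25- arrays, a difference of 1.20 (SE 0.22, adjusted p = 0.00394), 1.00 and 1.61 within the runs.

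Il10 read 4.18, 4.39, 5.01, 4.34 and 5.08 in mesenteric CD25+ and 4.17, 4.17 and 4.32 in CD25- arrays. Replicates 3 and 5 stood above the other CD25+ arrays, which overlapped the CD25- range or lay just above it. The difference was 0.38 (SE 0.18, 95% interval -0.013 to 0.78, adjusted p = 0.218). In peripheral nodes Il10 read 4.64, 4.33 and 4.51 in CD25+ and 4.05, 3.90 and 4.13 in CD25- arrays, a difference of 0.47 (95% interval 0.029 to 0.91, adjusted p = 0.207). The peripheral groups did not overlap, which 9.63% of probe sets share in this direction.

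The actin ratio was 2.85 against 2.63 in mesenteric and 3.02 against 2.54 in peripheral nodes for CD25+ against CD25- cells (exact permutation tests, p = 0.0714 and p = 0.1, the latter the smallest p that 3 against 3 allows). With it as a covariate, the Fgl2 differences were 0.47 (adjusted p = 0.184) and 0.83 (adjusted p = 0.169), so neither call held. The summed macrophage and dendritic cell markers were 525 to 612 in mesenteric CD25+ and 467 to 516 in CD25- arrays, and 473 to 599 against 480 to 495 in peripheral nodes. Of the 18 measured, 2 were called higher in mesenteric CD25+ cells, Lgmn and Batf3, and 0 in peripheral ones. Of all probe sets, 4.66% and 1.80% were called higher there. The B cell sum was 649 to 784 against 567 to 637 in mesenteric nodes, with Cd79b (1.07) and Blk (1.59) called higher. The other Blk probe set read 0.21 there and did not pass. In peripheral nodes the B cell sum was 529 to 1005 against 507 to 826. The CD8 and NK cell sum was lower in CD25+ arrays of both sites without overlap, at 91.0 to 95.9 against 107 to 110 and 91.2 to 103 against 123 to 164. The mesenteric endothelium and stroma sum was 526 to 574 against 493 to 509, with Eng (0.55) called higher. The mesenteric macrophage sums did not overlap either, and the part of these cell types in the member values was not tested. Between mesenteric and peripheral CD25+ cells, Il10 differed by 0.10, Entpd1 by -0.093 and Fgl2 by -0.50, and none was called (adjusted p = 0.979, 0.973 and 0.972), where 0.0725% of all probe sets were. The interaction of site with sort called none of the members (-0.088, -0.20 and -0.55, each adjusted p = 1) and 0.00805% of all probe sets.

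The sort differences in the pancreas and in the nodes were compared directly in a joint fit of set 1 and the node set. The CD69 gate and the IgG treatment were those of set 1 only, so they cannot be told apart from tissue here. The pancreatic difference exceeded the mean node difference by 1.90 for Il10 (SE 0.26, 95% interval 1.36 to 2.43, adjusted p = 0.000654). Il10 lay near background in the Teff and all node arrays of this fit, and Entpd1 and Fgl2 on all its arrays, so the sizes are those of the measured values and not exact. The pancreatic difference was larger by 0.81 for Entpd1 (SE 0.15, 95% interval 0.51 to 1.12, adjusted p = 0.00577). Of all probe sets, 1.22% had a larger difference in the pancreas by this test. For Fgl2 the value was 0.94 (SE 0.41, 95% interval 0.082 to 1.79, adjusted p = 0.299), and 0.26 without set 1 Treg replicate 1. With the actin covariate the value was 1.64 for Il10 (adjusted p = 0.0105) and 0.96 for Entpd1 (adjusted p = 0.00915).

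**Figure D4:**
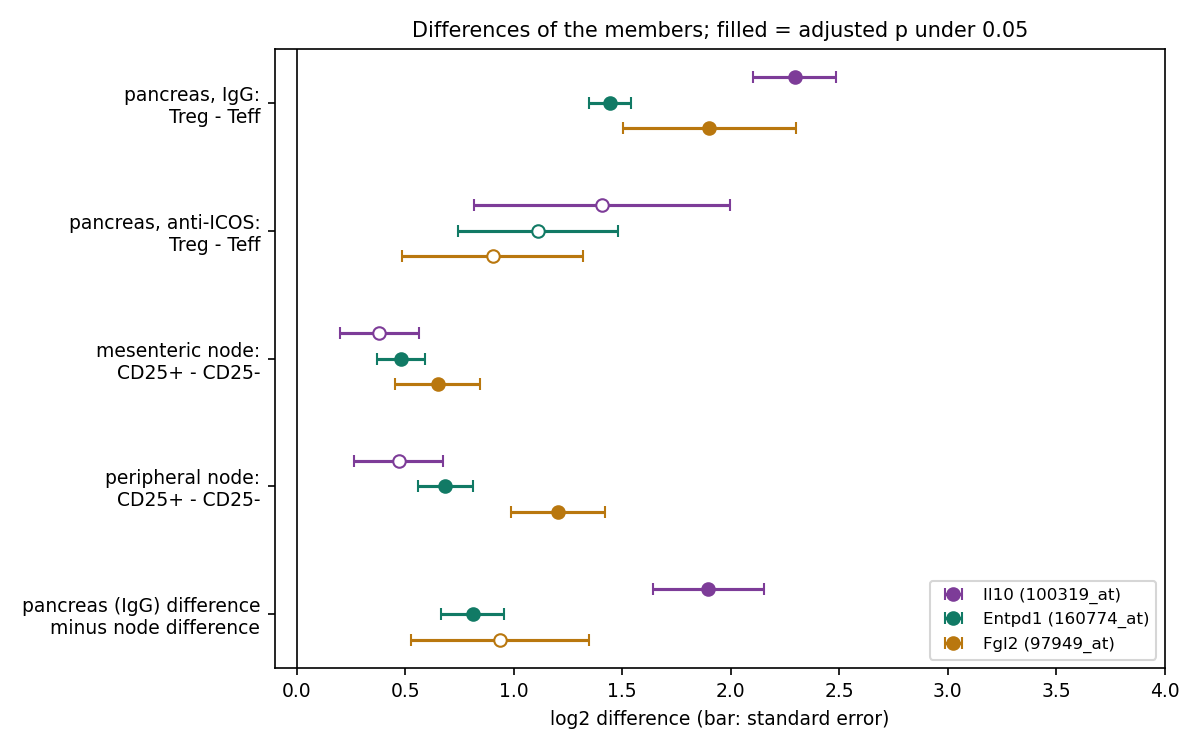
Log2 difference with its standard error (horizontal axis) for Il10, Entpd1 and Fgl2 in the 4 sort comparisons and in the test of the pancreatic against the node difference (vertical axis). Filled points passed an adjusted p of 0.05 in limma, and open points did not. Il10 goes from 2.30 in the IgG pancreas to 0.38 and 0.47 in the nodes, and Fgl2 is the largest of the 3 in both nodes.

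By level, pancreatic IgG Treg cells of set 1 read higher than node CD25+ cells for Il10 by 1.91 (adjusted p = 2.55e-06), for Entpd1 by 0.91 (adjusted p = 1.53e-05) and for Fgl2 by 1.07 (adjusted p = 0.0158). Here 12.0% of all probe sets were higher in the pancreas, tissue and record set coincide, and the gates differ in CD69. Without set 1 Treg replicate 1 the Fgl2 value was 0.39 (adjusted p = 0.17). Pancreatic Teff and node CD25- cells differed by 0.011 for Il10 (95% interval -0.34 to 0.36), 0.097 for Entpd1 (-0.10 to 0.30) and 0.13 for Fgl2 (-0.43 to 0.70). None of the 3 passed, while 27.0% of all probe sets did. All 3 genes lay near background on all of these Teff and CD25- arrays, so the comparison cannot show that their levels were equal.

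Over the 9 groups, put on 1 scale by joint quantile normalisation, the pancreatic Treg groups took the top 3 places for each gene. Both node CD25+ groups followed. This order is that of the main probe sets, as Fgl2 162289_at had peripheral CD25- cells at place 2. Array 2298 counts in both IgG Treg groups. Il10 fell from 6.60 ± 0.59 in IgG Treg cells of set 1, 6.22 ± 0.27 in those of set 2 and 5.61 ± 1.29 in anti-ICOS Treg cells to 4.71 ± 0.42 in mesenteric and 4.60 ± 0.16 in peripheral CD25+ cells (mean ± SD). The Teff and CD25- groups held the last 4 places, at 4.12 to 4.35 for Il10. Neighbours in the order overlapped for each gene, except that all anti-ICOS Teff arrays lay above all IgG Teff arrays for Entpd1 on this scale. The ranges of anti-ICOS Treg and node CD25+ cells overlapped for Il10 and Entpd1 through anti-ICOS Treg replicate 3 and for Fgl2 through replicates 1 and 3.

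The genes known to act on Il10 were taken from a list of 22 transcription factors, 20 of them measured. In the IgG pancreas 5 were higher and 1 lower in Treg cells, with a list median of 0.087 against 0.030 over all probe sets. Of all probe sets, 3.93% were called higher and 2.76% lower here. The 5 were Ahr (2.58, SE 0.32, adjusted p = 0.00129), Prdm1 (1.85, SE 0.12, adjusted p = 2.15e-05), Gata3 (0.71), Batf (0.66) and Bhlhe40 (0.65). Prdm1 read 6.21, 6.09 and 5.79 in the Treg and 4.05 to 4.38 in the Teff arrays, near background on all of them. Ahr lay above the background limit in Treg replicates 1 and 3 (7.30 and 6.32) and near background in replicate 2 and all Teff arrays. Ahr is the ligand-activated aryl hydrocarbon receptor, Prdm1 encodes Blimp-1, and Batf is an AP-1 family factor. Bhlhe40 is known to repress Il10. Nfatc1, a factor of T cell receptor signalling, was lower by 0.40.

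In mesenteric nodes Ahr (1.78), Bhlhe40 (1.12) and Gata3 (0.48) were higher and Egr2 (-0.63) and Stat4 (-0.61) lower in CD25+ cells. In peripheral nodes Ahr (1.12) and Gata3 (0.62) were higher, and Irf4 (-1.46), Egr2 (-1.55) and Stat4 (-1.17) lower. Prdm1 was 0.25 and 0.56 there and passed at neither site (adjusted p = 0.382 and 0.0844). Its difference was larger in the pancreas by 1.43 (SE 0.18, adjusted p = 0.000654), the only 1 of the 20 factors called in that test. Prdm1 lay near background on all arrays of this fit, so the size is that of the measured values and not exact.

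Of 8 listed genes of the IL-10 receptor and its signalling, 7 were measured, and 0 passed in the IgG pancreas (list median 0.21) or in mesenteric nodes (list median 0.21). In peripheral nodes Il10rb, the shared receptor chain, was higher in CD25+ cells by 0.73 (adjusted p = 0.0452). None of the 9 listed IL-10 family cytokines and receptors had a probe set that named it alone.

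Of 26 genes of extracellular nucleotide and adenosine handling, 15 were measured. In the IgG pancreas P2rx4, an ATP-gated channel, was higher by 0.82 and Pnp, which splits inosine and guanosine, by 0.89. Adk, the kinase that removes adenosine, was lower by 0.58 (adjusted p = 0.044). Its 2 other probe sets read -0.044 and -0.041 and did not pass. In mesenteric nodes Pnp (1.31) and Slc29a1 (0.35), a nucleoside transporter whose other probe set read -0.47 and did not pass, were higher, and Entpd5, an ectonucleotidase relative that works in the endoplasmic reticulum, was lower by 0.78. In peripheral nodes 0 of 15 passed. The list median was 0.13 in the IgG pancreas and 0.12 and 0.061 in the nodes, against 0.030, 0.041 and 0.054 over all probe sets. Of 12 listed FGL2 receptors and fibrinogen relatives, 9 were measured and 0 passed in any of the 4 sort comparisons.

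Of 21 other listed effector molecules of Treg cells, 16 were measured, and 8 were higher and 0 lower in IgG pancreatic Treg cells, with a list median of 0.63. Over all probe sets 3.93% were called higher, and the median was 0.030. Gzmb was higher by 3.67, Itgae, the CD103 integrin chain, by 3.28, Lgals1, galectin-1, by 3.15, Nrp1, neuropilin-1, by 2.65 and Ctla4 by 2.40. Il2ra (2.00), Ebi3 (0.73), the shared chain of IL-27 and IL-35, and Pdcd1 (0.58), the receptor PD-1, completed the 8, and the second probe set of Ebi3 read 0.057 and did not pass. In each node 7 of the 16 were higher and 0 lower, among them Nrp1 (3.64 and 3.30), Gzmb (2.51 and 2.80) and Ctla4 (2.98 and 1.40). Of all probe sets 4.66% and 1.80% were called higher there, and the list medians were 0.43 and 0.36 against 0.041 and 0.054. Of the 16 only Itgae had a larger difference in the pancreas than in the nodes by the joint test (2.06, adjusted p = 0.00635). Il2ra belongs to the sort, so its difference is a check of the sort and no result.

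**Figure D5:**
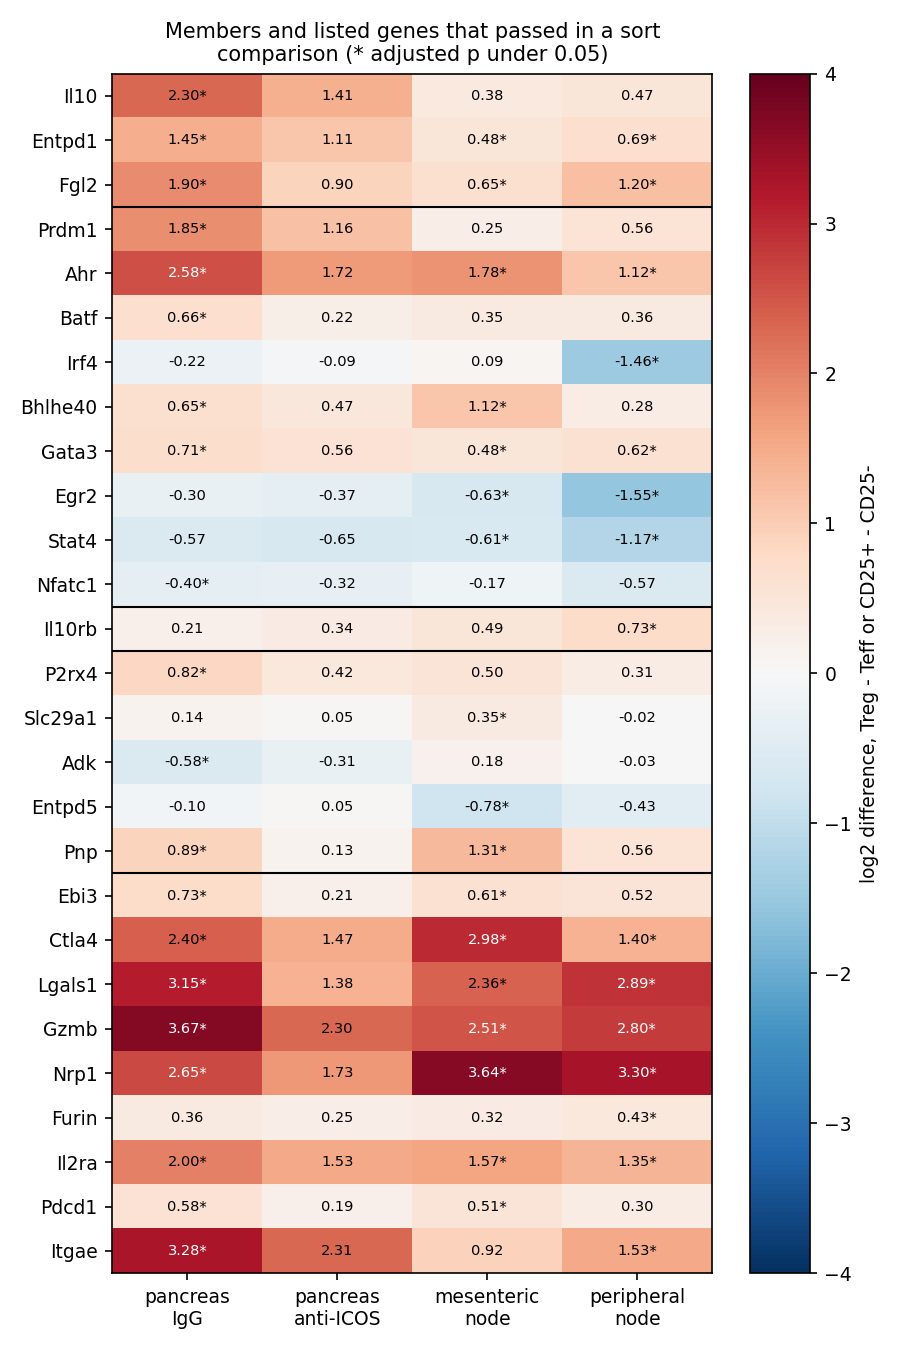
Log2 differences (colour and printed value) in the 4 sort comparisons (columns) for the members and for the 24 listed genes that passed in at least 1 of them (rows), with an asterisk where the adjusted p of limma was under 0.05. Horizontal lines separate the members, the Il10 transcription factors, the IL-10 receptor gene, the nucleotide genes and the other effector molecules. Ahr and Nrp1 are called in 3 columns and Prdm1 and Il10 in the IgG pancreas only, while no gene is called in the anti-ICOS column.

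The genes whose pattern was most like each member were found by Pearson's r over 29 distinct arrays, with values centred within each set, among 5415 probe sets. The points share arrays, sets and sorts, so the values are descriptions. Il10 was nearest to Prdm1 (r = 0.94), Glrx, Itgae, Rin2 and Ahr (r = 0.89). Prdm1 lay above the background limit in anti-ICOS Treg replicate 2 only, at 6.66. Entpd1 was nearest to Itgae (r = 0.97), AU020206, Penk, Aopep and Rin2 (r = 0.94). Fgl2 was nearest to AW112010 (r = 0.91), Snx9, Ccr2, Rin2 and Itgae (r = 0.89). Penk encodes the opioid precursor proenkephalin, Ccr2 a chemokine receptor and Glrx the redox enzyme glutaredoxin. Within the node set alone, r with Prdm1 was 0.73 for Il10, and r with AW112010 was 0.90 for Fgl2. Among themselves the members had r = 0.91 for Il10 with Entpd1, 0.84 for Il10 with Fgl2 and 0.85 for Entpd1 with Fgl2.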

How the data were processed

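Expression was measured in sorted CD4+ T cells on 30 arrays. The deposited table gave each probe set a linear intensity per array. RMA, without a version, is named for pancreas set 2 and the lymph node arrays per the submitters' processing notes. For pancreas set 1 it was not given in the sources used here. Set 1's labels and those of 1 lymph node sample name 2 rounds of RNA amplification, per the labels' protocols.

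Log2 was taken of the deposited intensity. Array medians were 32.5 to 34.5 in set 1, 27.9 to 29.8 in set 2 and 25.3 to 27.1 in the node set. Sets were fitted as deposited, and fits across sets followed joint quantile normalisation. All 12422 non-control probe sets were tested in R 4.3.3 by limma's lmFit and eBayes (version 3.58.1, two-sided, Benjamini-Hochberg). A fit without a block was the main one. The number of arrays limits the precision. Groups followed the titles. The 66 control rows of the node arrays matched set 1 with r = 0.254 as stored and r = 0.952 once reordered by letter case.

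The members and lists were chosen with earlier results of these data known. Named genes were the members, listed genes past the threshold (by the probe set with the highest mean) and the 5 nearest patterns per member, with exceptions said. Deviations of same-numbered anti-ICOS Treg and Teff arrays had r = 0.24 to 0.59 over 3 pairs, and 4 of 6 arrays were closest to their own number. Same-numbered anti-ICOS and IgG Treg arrays, which came from different array runs, had r = 0.54 and 0.62. Values of this size therefore do not show that arrays were paired, and the labels name no pairs. Alternatives were normalisation, limma options, a filter on dim probe sets, array runs, the actin ratio, the replicate block, other probe sets and leaving out each array. The fit was tested on simulated data.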

Additional observations from a re-analysis of the deposited data

Results flagged for a closer look

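The Treg minus Teff difference of IgG pancreas was larger than the CD25+ minus CD25- difference of the nodes for Il10 by 1.90 and for Entpd1 by 0.81 on the log2 scale, in a test of the difference itself. Tissue, CD69 gate and treatment cannot be told apart in this test. Fgl2 162289_at read 2.90 in IgG Teff replicate 5 of set 1, below the other 4 Teff arrays. Chance puts about 1 in 20 such sets of values on this list, and 10 were examined. They were the member probe sets in IgG Teff cells of set 1 and in mesenteric CD25+ cells. The other groups held too few arrays for this check.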

How the results depend on the processing

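The IgG pancreas differences of Il10 and Entpd1 and their larger difference in the pancreas than in the nodes passed under every alternative that could be fitted with their main probe sets. Leaving out each array gave 2.03 to 2.57 for Il10 and 1.36 to 1.53 for Entpd1 in the IgG pancreas, and 1.61 to 2.20 and 0.72 to 0.90 for the pancreas against the nodes. The calls of Fgl2 were the least steady. The filter on dim probe sets kept only Il10, in the pancreatic fits, so it gave no value for Entpd1 or Fgl2. Signal near background limits both. The cause of each change below was not tested.

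With the actin ratio as covariate, Fgl2 was 2.09 in the IgG pancreas, 0.47 and 0.83 in mesenteric and peripheral nodes and 1.09 for pancreatic Treg against node CD25+ cells, each no longer called. Mesenteric minus peripheral CD25- Fgl2 turned to -0.0082, the site by sort value of Il10 to 0.055, and pancreatic Teff minus node CD25- Il10 to -0.013. Counts of calls fell to 86 from 831 in the IgG pancreas, to 267 from 955 in peripheral nodes, to 56 from 258 for pancreas by sort, to 1194 from 2999 for pancreatic Treg against node CD25+ cells and to 5 from 9 for site among CD25+ cells.

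With array runs as a block, anti-ICOS Il10 was called at 2.16 (adjusted p = 0.049), with 15 calls. Anti-ICOS Treg replicate 3 shares its run with no anti-ICOS Teff array, so this fit left it out of the difference. The value came from the runs that hold both sorts, where Il10 differed by 1.82 and 2.61. For anti-ICOS against IgG Treg cells the block left 1 array of each, anti-ICOS replicate 3 and IgG replicate 2. Il10 was then -2.08, and no call is given. Between treatments in Teff cells the block turned Il10 to -0.21. Within the runs that hold both Teff groups the Il10 difference was 0.18 and 0.057, so the turn was not seen inside a run. As deposited and median-centred, anti-ICOS against IgG Teff cells gave 1870 calls against 0, Entpd1 turned to -0.058, and pancreatic Teff minus node CD25- turned to -0.022 for Il10 and -0.00473 for Entpd1. Quantile normalisation gave mesenteric Fgl2 0.64 (adjusted p = 0.0565). Trend and robust options gave 1 call for treatment in Teff cells and 2 for site by sort. The filter on dim probe sets gave 0 calls for site by sort, 1464 for pancreatic Treg against node CD25+ cells and 1874 of 3348 for Teff against node CD25- cells.

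The replicate block changed no call of a member in the anti-ICOS comparison (Il10 1.41, adjusted p = 0.766, 0 calls). In mesenteric nodes, where same-numbered arrays share only a number, the block gave 832 calls against 1514, Entpd1 0.44 (adjusted p = 0.0784) and Fgl2 0.37 (adjusted p = 0.133), and it gave 2 calls for site by sort.

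The other probe set of Fgl2, 162289_at, read 0.14 in the IgG pancreas, 0.087 and -0.025 in mesenteric and peripheral nodes, 0.18 for pancreatic Treg against node CD25+ cells, -0.14 for treatment in Teff cells, 0.00439 for the treatment interaction, -0.25 for site among CD25- cells and 0.11 for site by sort. AFFX-MurIL10_at read 0.033, -0.00559, -0.17, 0.11, -0.12, -0.083, 0.023, -0.014 and -0.037 for the IgG pancreas, mesenteric sort, treatment in Teff cells, treatment interaction, site among CD25+ and CD25- cells, pancreas by sort, pancreatic Treg against node CD25+ and Teff against node CD25- cells.

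Leaving out 1 array at a time moved counts of calls to between 450 and 1000 (IgG pancreas, lowest without Teff replicate 5), 0 and 12 (anti-ICOS sort), 0 and 35 (treatment in Treg cells), 0 and 1 (treatment in Teff cells), 743 and 1878 (mesenteric), 531 and 1462 (peripheral), 2 and 21 (site, CD25+), 36 and 68 (site, CD25-), 1 and 2 (site by sort), 151 and 444 (pancreas by sort), and 1951 and 3271 (pancreatic Treg against node CD25+). Member values spanned 0.83 to 2.20 for anti-ICOS Il10, -1.15 to 0.22 for Il10 and -0.77 to 0.054 for Fgl2 between treatments in Treg cells, 1.23 to 2.25 for Fgl2 in the IgG pancreas, 0.43 to 0.54 for Entpd1 and 0.52 to 0.75 for Fgl2 in mesenteric nodes. They spanned 0.39 to 1.44 for Fgl2 in pancreatic Treg against node CD25+ cells, -0.020 to 0.21 for Il10 and -0.17 to 0.033 for Entpd1 by site in CD25+ cells, -0.014 to 0.11 for Fgl2 by site in CD25- cells, -0.21 to 0.017 for Il10 by site and sort and -0.013 to 0.046 for Il10 in Teff against node CD25- cells.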
